A study of Musca domestica with 8 samples.

Results

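The contigs of *Musca domestica* described here are those whose annotation names a heat shock protein, a chaperone, a crystallin, a DnaJ protein or a T-complex protein and gives an insect in brackets as the matched species. Of the 35834 contigs in the assembly, 97 met this rule. Another 24 contigs carried one of the words without a bracketed insect and were left out. All 8 samples, numbered No.1 to No.8, carry the same labels. They come from 791spin, a housefly strain selected with spinosad from the multi-resistant strain 791a. They are described as whole adult flies of 5 to 7 days, males and females pooled (about 60 flies a pool), fed on sugar. The design text of the series speaks of a comparison with a susceptible strain, but every sample is labelled 791spin and none susceptible or untreated. Whether all samples are of that strain, and each pool of both sexes, rests on the labels and this description. If either were wrong, a spread between samples could not be told apart from a difference between strains or in sex. No groups were compared, and the values below describe how these contigs differed among samples of a single label.

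Heat shock proteins are chaperones, proteins that bind other proteins while these fold, unfold or are carried to their place. Small heat shock proteins hold unfolding proteins without using ATP, Hsp70 binds and releases exposed stretches with the help of Hsp40 (DnaJ) proteins, Hsp90 (named HSP83 in flies) acts late on signalling proteins, and the barrel-shaped chaperonins enclose a chain while it folds. Some members are present in all cells at all times, whereas others are made mainly after heat or another stress, when heat shock factor switches their genes on.

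Between 10266664 and 16115208 reads per sample were counted on contigs. A level is given as counts per 1000000 counts of the sample (CPM), or as CPM per kilobase of contig (RPKM) where contigs are compared with each other, and 3 counts corresponded to 0.186 to 0.292 CPM. The samples stood apart in ways not given by the labels. The 35 contigs of yolk, vitelline membrane and chorion proteins, which mark the egg-forming female, summed to at most 126 CPM in No.1, No.3, No.5 and No.7 (lowest 7.28), and to at least 206 CPM in No.2, No.4, No.6 and No.8 (highest 4330). Muscle contigs (36) summed to 551 CPM in No.2 and 5973 CPM in No.5. Eye contigs (9) ranged from 279 CPM in No.6 to 1399 CPM in No.3, and gut contigs (26) from 2853 CPM in No.8 to 5620 CPM in No.3. No contig of the male reproductive list was found, and whether each pool held both sexes, as described, was not tested. In whole flies, fewer cells of a type and less RNA per cell cannot be told apart. Nothing in the labels says whether the 8 samples came from separate cultures, so the spread between them may be partly technical.

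Together the 97 contigs held 358105 counts. Their share of all counts was 0.377% ± 0.0750 (SD, n = 8). In the order of the sample numbers it was 0.305%, 0.477%, 0.401%, 0.445%, 0.253%, 0.343%, 0.424% and 0.366%, so that No.2 was highest and No.5 lowest. The 4 contigs matched to the Hsp70 of *M. domestica* took 33.8% of the counts on members. None of the 97 was among the 10 most counted contigs of the assembly. Counts were found for 95 contigs in at least 1 sample and for 74 in every sample. A mean of at least 5 counts, the minimum for a test, was reached by 77, and 20 contigs were not tested. The contigs were 113 to 2420 bp long with a median of 791 bp, against 726 bp for the assembly. Only 8 of them were matched to *M. domestica* itself, and 54 to the tsetse genus *Glossina*. The 97 contigs were matched to 53 proteins, and 65 contigs shared a protein with another. Contigs that share a protein may be pieces or copies of a gene, which their counts cannot tell apart.

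A chi-square test of each contig over the 8 samples, adjusted by the Benjamini-Hochberg method over all contigs, asked whether a contig varied by more than counting error. It called 74 of the 77 tested members, and 95.1% of all 23597 contigs tested. The highest sample had at least 4 times the level of the lowest for 44 of 77 members (57.1%), against 61.8% of all contigs. The median ratio between these samples was 4.85 for the members and 4.93 for all contigs. The median dispersion, the squared variation between samples beyond counting error as edgeR estimates it, was 0.279 and 0.303. These values lay close to each other, while the classes of chaperones differed. All 9 tested small heat shock protein contigs passed the 4-fold limit, as did all 5 of the TCP1 chaperonin and 10 of 12 co-chaperone contigs. Only 2 of 6 Hsp70 contigs, 2 of 5 mitochondrial chaperonin contigs and 1 of 6 contigs annotated as multifunctional chaperone did so. Just above the limit lay an Hsp40 contig at 4.00 and a p23 contig at 4.01, and just below it lay 2 contigs annotated as molecular chaperone at 3.95 and 3.79.

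**Figure D1:**
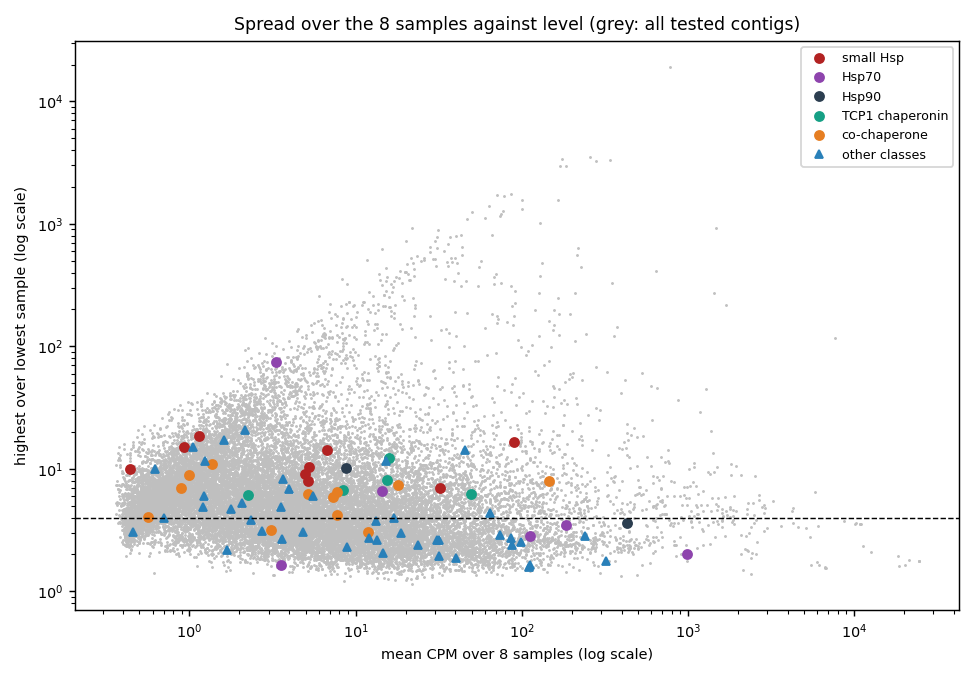
Highest over lowest sample against the mean level in CPM, both on log scales, for the 77 tested members (coloured by class) over all 23597 tested contigs (grey). The dashed line marks 4-fold. Every small heat shock protein contig lies above the line, and the most counted Hsp70 contig lies near the lower edge of the grey points.

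For 17 of 77 members 1 sample lay far from the other 7, as for 20.5% of all contigs. The sample with the highest level was No.2 for 31 of 77 members (40.3%), against 29.0% of all contigs, and No.7 for 9 members, against 10.3%. The lowest was No.5 for 28 members (36.4%), against 21.3%. These counts depend on the scaling, as the TMM factors, which scale samples to the bulk of their contigs, ran from 0.827 to 1.21. With TMM the highest sample stayed the same for 68 of 77 members and the lowest for 61. No.2 was then the highest for 32 members, against 29.4% of all contigs, and No.5 the lowest for 16, against 13.5%. The most frequent lowest sample with TMM was No.1, for 21 members, up from 12, and the share of all contigs for it is not given here. The summed level of the 97 contigs was then also lowest in No.1, but with DESeq2 scaling in No.5. The 4 highest samples were the even-numbered ones for 11 of 77 members, against 8.05% of all contigs, and the odd-numbered ones for 3 members, against 5.8%. Those 11 were 3 TCP1 chaperonin contigs, 3 of p23, 2 of the mitochondrial chaperone BCS1, 1 of the 25 kDa small heat shock protein, 1 of mu-crystallin and 1 annotated only as heat shock protein.

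**Figure D2:**
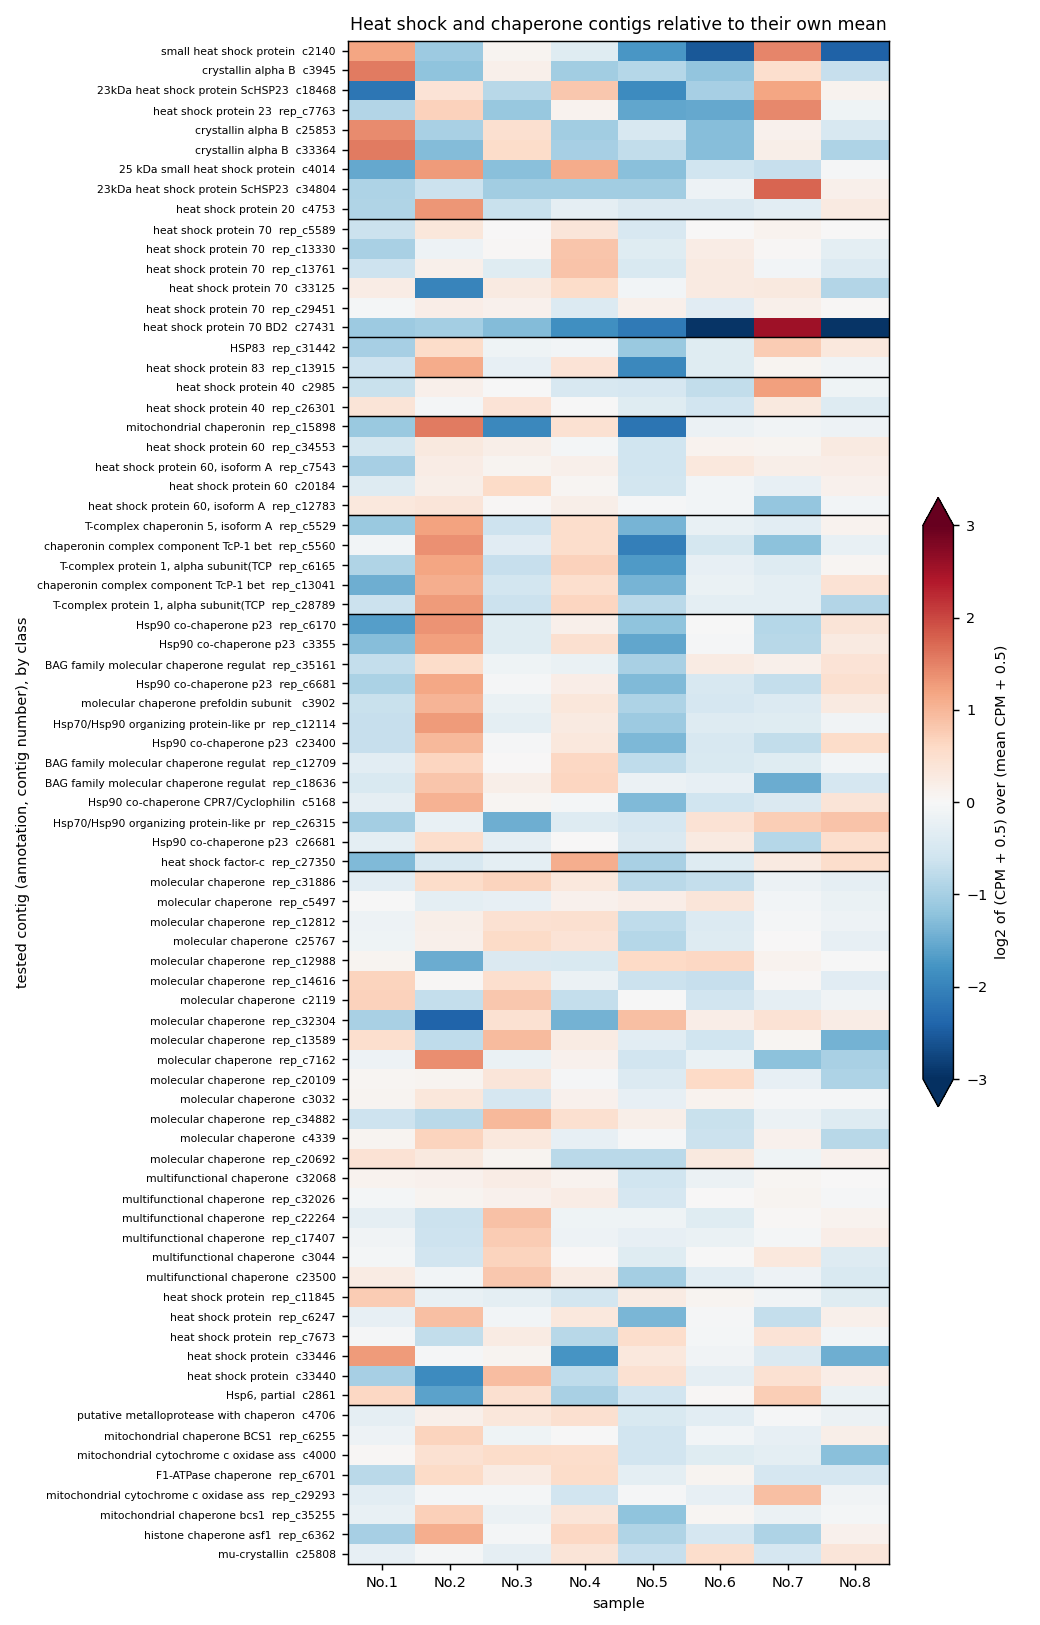
Level of each of the 77 tested members in the 8 samples as log2 of its CPM over its own mean CPM, with 0.5 CPM added to both, grouped by class. Red is above and blue below the contig's mean. The TCP1 chaperonin and co-chaperone blocks are reddest in No.2, and the Hsp70 BD2 row is red in No.7 alone.

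The summed level of the small heat shock proteins spread more widely than that of any class but heat shock factor. Their 12 contigs summed to 148 ± 124 CPM (SD, n = 8). The sum reached 345 CPM in No.7 and was nearly as high in No.1 at 337 CPM, had a median of 98.8 CPM over the samples, and was lowest in No.6 at 39.2 CPM. No.1 and No.7 together stood above the other samples, and the ratio of highest to lowest was 8.80, or 8.60 without No.7.

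The most counted of them, M_dom_c2140 (714 bp), matched a small heat shock protein of the mosquito *Culex pipiens pipiens*. Its level was 205, 42.3, 94.8, 70.5, 26.5, 15.1, 250 and 16.4 CPM in No.1 to No.8. No.7 and No.1 were highest, No.6 and No.8 lowest, and the chi-square per degree of freedom was 1039, where counting error alone gives about 1. Without this contig the class summed to 57.6 CPM on average. The summed level of the 9 eye contigs had a similar order. It was 1051, 528, 1399, 766, 392, 279, 1168 and 367 CPM in No.1 to No.8: No.3, No.7 and No.1 were highest and No.6 and No.8 lowest. A single contig held 88.2% of the eye counts, so this order is largely that of 1 contig. Only 3 of the 8 tested eye contigs had No.6 as their lowest sample, so the eye contigs did not share 1 order. Their part in the levels of M_dom_c2140 was not tested.

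Contigs matched to crystallin alpha B of *Glossina*, a protein of the small heat shock family, had another order. M_dom_c3945 (1070 bp) had 96.6 CPM in No.1, 46.0 in No.7 and 36.3 in No.3, and between 13.9 and 19.9 CPM in the other samples. No.1 thus stood alone, and the ratio of highest to lowest fell from 6.96 to 3.31 without it. The other contigs of this protein, M_dom_c33364 and M_dom_c25853, were also highest in No.1, with 15.7 and 14.6 CPM, and their counts kept to 0.119 to 0.208 and 0.125 to 0.206 of those of M_dom_c3945 in all samples.

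The 4 contigs matched to ScHSP23, a 23 kDa heat shock protein of the flesh fly *Sarcophaga crassipalpis*, were each highest in No.7, as were 10.3% of all tested contigs. Of these 4, M_dom_c35303 and M_dom_rep_c21633 had only 8 counts each in No.7 and were not tested. The most counted, M_dom_c18468 (1105 bp), reached 15.9 CPM in No.7, followed by No.4 (12.3 CPM), No.2 (9.18 CPM) and No.8 (7.29 CPM), whereas the remaining samples had 1.12 to 3.55 CPM. In No.1, where M_dom_c2140 and crystallin alpha B were high, it was at its lowest. Hsp23 of *Glossina* (M_dom_rep_c7763) showed 15.0 CPM in No.7, 8.77 in No.2 and 5.66 in No.4, with a lowest value of 1.44 CPM in No.5.

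The remaining small heat shock proteins were sparse. The 25 kDa protein (M_dom_c4014) had 3.45 CPM in No.2 and 3.02 in No.4 and no more than 1.09 CPM elsewhere, with 0.0621 CPM in No.1. Heat shock protein 20 (M_dom_c4753) had 1.86 CPM in No.2 and up to 0.638 CPM in the other samples. No.2 was thus highest for both, and it was not among the high samples of M_dom_c2140. M_dom_c34804, matched to ScHSP23, had 4.30 CPM in No.7, then 1.09 CPM in No.8, and only 0.189 CPM in No.4, where M_dom_c18468 of the same protein was high. The small heat shock protein contigs thus did not share 1 order of samples.

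**Figure D3:**
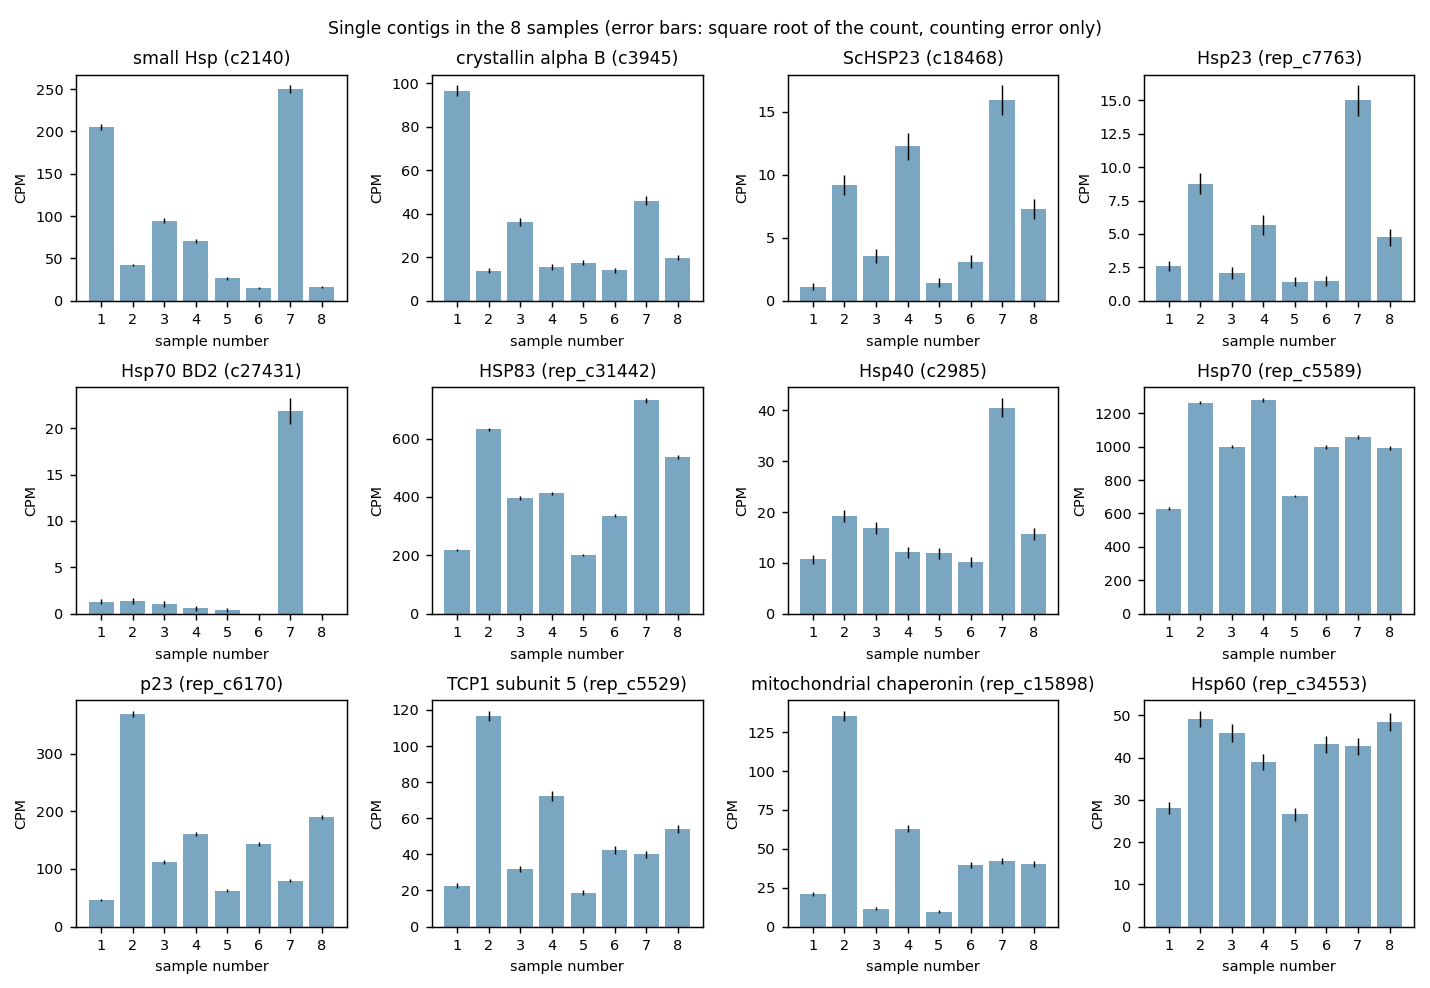
Level in CPM of 12 contigs in the 8 samples. Bars start at 0 and error bars are the square root of the count, which covers counting error only. Small Hsp is highest in No.1 and No.7, crystallin alpha B in No.1, Hsp70 BD2 and Hsp40 in No.7, and p23, TCP1 subunit 5 and the mitochondrial chaperonin in No.2, while the Hsp60 contig drawn, M_dom_rep_c34553, varies 1.85-fold.

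Hsp70 took more counts than any other class, 1310 ± 323 CPM (SD, n = 8) over 8 contigs. The sum was lowest in No.1 at 818 CPM, had a median of 1335 CPM and was highest in No.4 at 1838 CPM, a ratio of 2.25. The main contig, M_dom_rep_c5589 (2420 bp, matched to Hsp70 of *M. domestica*), had 629, 1263, 999, 1279, 705, 998, 1057 and 992 CPM in No.1 to No.8. No.4 and No.2 were highest and No.1 and No.5 lowest. Its ratio of 2.03 exceeded that of only 5.24% of all tested contigs, although the chi-square per degree of freedom was 721.

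The next 2 contigs of the same protein followed a slightly different course. M_dom_rep_c13330 (622 bp) had 329 CPM in No.4 and 94.8 to 216 CPM in the other samples. M_dom_rep_c13761 (609 bp) had 206 CPM in No.4 and 72.7 to 137 CPM in the others. Relative to M_dom_rep_c5589 their counts were highest in No.4, at 0.257 and 0.161, and lowest in No.2 and No.8, at 0.132 and 0.0856. M_dom_rep_c29451 (912 bp), the fourth contig of this protein, had 2.55 to 4.14 CPM and was not called by the chi-square test with Benjamini-Hochberg adjustment (adjusted p = 0.31).

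The other Hsp70 contigs matched proteins of other insects. M_dom_c33125 (474 bp, Hsp70 of the moth *Loxostege sticticalis*) was lowest in No.2 (3.25 CPM) and No.8 (7.56 CPM) and lay between 13.5 and 21.2 CPM elsewhere. No.2, where the main Hsp70 contig was among the highest, was here the lowest. M_dom_c27431 (806 bp), matched to Hsp70 BD2 of the fruit fly *Bactrocera dorsalis*, was picked out after its values were seen. It had 21.9 CPM in No.7, 0.385 to 1.38 CPM in No.1 to No.5, and no counts in No.6 and No.8. It was at least 74.8-fold higher in No.7 than in No.6, and its dispersion of 2.39 exceeded that of 99.0% of all tested contigs. Without No.7 its highest sample had 1.38 CPM. M_dom_rep_c28041 (Hsp70B of the tachinid fly *Exorista civilis*) had counts in No.7 alone, at 0.344 CPM, which is near the level of 3 counts.

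A single contig of HSP83, the Hsp90 of flies, had the highest level per length of all members, which does not rank the genes. M_dom_rep_c31442 (796 bp, HSP83 of the blowfly *Lucilia cuprina*) stood at 543 RPKM on average, against 409 RPKM for the main Hsp70 contig. Its level was 217, 631, 396, 412, 201, 336, 730 and 538 CPM in No.1 to No.8. No.7 and No.2 were highest, No.5 and No.1 lowest, and the ratio was 3.63. It carried 97.9% of the counts of its class, which summed to 441 ± 193 CPM (SD, n = 8). M_dom_rep_c13915 (579 bp, HSP83 of *Drosophila buzzatii*) stood at only 15.1 RPKM on average. It fell between 19.5 CPM in No.2 and 1.92 CPM in No.5, a 10.1-fold difference, or 6.13-fold without No.2. M_dom_rep_c30930 stayed at or below 0.182 CPM and was not tested. A contig annotated as heat shock protein 83 of *Drosophila* without a bracketed species, M_dom_rep_c12484, is not a member. With it the class would sum to 575 CPM.

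**Figure D4:**
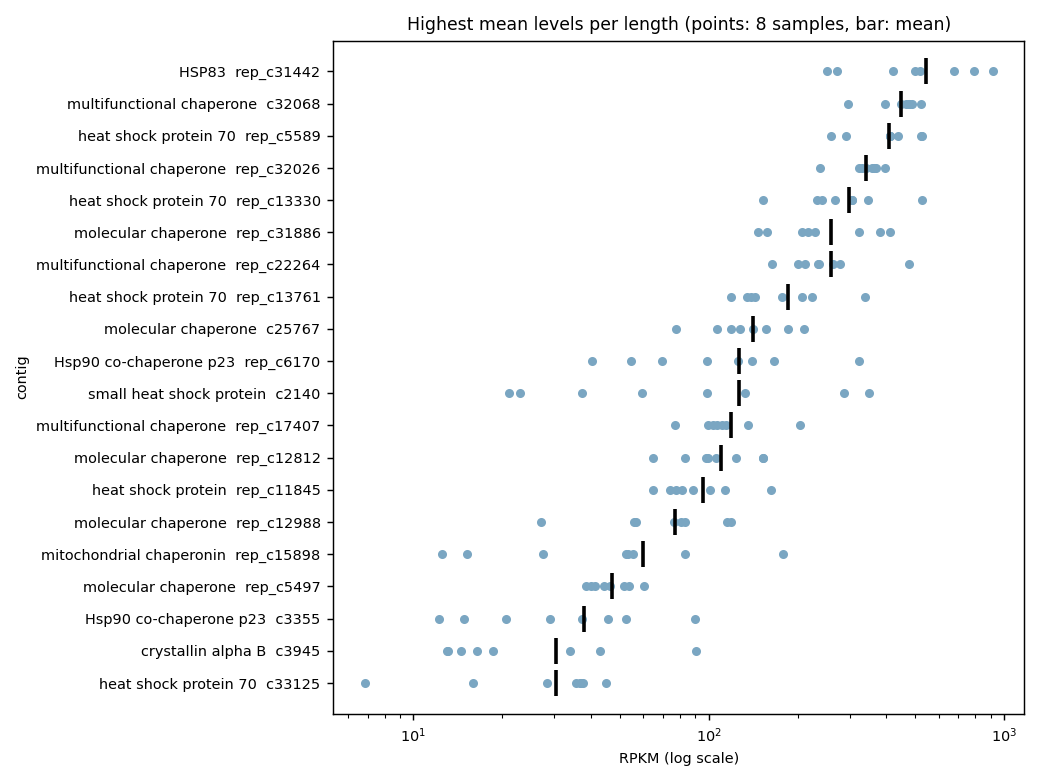
The 20 tested members with the highest mean level per length, in RPKM on a log scale. Points are the 8 samples and black bars their mean. The HSP83 contig M_dom_rep_c31442 leads at 543 RPKM, and the points of the small heat shock protein M_dom_c2140 and of p23 are spread more widely than those of the Hsp70 contigs.

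Both Hsp40 contigs matched heat shock protein 40 of *B. dorsalis*. Hsp40 proteins bring unfolded clients to Hsp70 and speed its ATPase. M_dom_c2985 (1990 bp) had 40.5 CPM in No.7 and 10.1 to 19.2 CPM in the other samples. No.7 stood alone, and the ratio fell from 4.00 to 1.89 without it. M_dom_rep_c26301 (546 bp) differed in its course, with 19.5 CPM in No.3, 19.1 in No.1 and 17.9 in No.7, down to 9.55 CPM in No.6, a 2.04-fold range.

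No.7 was therefore the highest sample for the HSP83 contig M_dom_rep_c31442, Hsp70 BD2, Hsp40 (M_dom_c2985), ScHSP23, Hsp23 and M_dom_c2140. For the main Hsp70 contig No.7, at 1057 CPM, ranked behind No.4 and No.2. The HSP83 contigs M_dom_rep_c13915 and M_dom_rep_c12484 (not a member) were instead highest in No.2, and crystallin alpha B in No.1. Among all tested members, 9 of 77 were highest in No.7, against 10.3% of all contigs. Of the marker lists, eye contigs summed to 1168 CPM in No.7, below No.3 alone, or highest in No.7 with TMM, while female reproductive contigs summed to 29.4 CPM, muscle contigs to 1983 CPM and gut contigs to 4691 CPM there. Their part in these values was not tested.

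Co-chaperones, here those that steer Hsp70 and Hsp90 together with prefoldin subunit 3, summed to 211 ± 138 CPM (SD, n = 8) over 15 contigs. These contigs matched only 5 proteins. The sum was 81.0 CPM in No.1, had a median of 185 CPM and reached 507 CPM in No.2. Of the 12 tested contigs, 11 were highest in No.2, against 29.0% of all contigs, and 8 lowest in No.5, against 21.3%. With TMM, 11 were highest in No.2 (29.4% of all contigs) and 5 lowest in No.5 (13.5% of all contigs), while 4 were lowest in No.1. Without No.2 the ratio of highest to lowest sum fell from 6.26 to 3.36.

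The Hsp90 co-chaperone p23, which binds Hsp90 in its ATP-bound state, gave most of these counts. M_dom_rep_c6170 (1146 bp) had 46.2, 369, 113, 161, 62.5, 144, 79.7 and 190 CPM in No.1 to No.8. The 4 even-numbered samples, at 144 to 369 CPM, lay above the odd-numbered ones, at 46.2 to 113 CPM. All 5 contigs of this protein were highest in No.2. Set against HSP83 (M_dom_rep_c31442), p23 had 0.585 counts per HSP83 count in No.2 and 0.109 in No.7. No.7 thus combined the highest HSP83 level with a low p23 level of 79.7 CPM. The female reproductive contigs summed to 206 CPM in No.2, the lowest of the even-numbered samples, and to 4330 CPM in No.8. Their sum, too, was higher in each even-numbered sample than in any odd-numbered one. Their part in these values was not tested.

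The Hsp70/Hsp90 organizing protein (Hop), which links both chaperones, had 18.5 CPM in No.2 and 3.17 to 8.96 CPM in the other samples (M_dom_rep_c12114, 1306 bp). A second contig of it, M_dom_rep_c26315, was instead highest in No.8 at 2.01 CPM and had no counts in No.3. Prefoldin subunit 3 (M_dom_c3902), part of the complex that hands new chains to the TCP1 chaperonin, had 16.2 CPM in No.2 and 3.85 to 9.91 CPM elsewhere. BAG family regulator 2 (M_dom_rep_c35161), of a family that acts on the nucleotide state of Hsp70, ranged only from 5.77 CPM in No.5 to 17.5 CPM in No.2, a ratio of 3.03.

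The TCP1 chaperonin (CCT), a ring complex of the cytosol known for folding actin and tubulin, summed to 92.7 ± 61.0 CPM (SD, n = 8) over 10 contigs. The sum was 30.9 CPM in No.5, had a median of 71.5 CPM and reached 221 CPM in No.2. All 5 tested contigs, some of them matched to the same protein, were highest in No.2, against 29.0% of all contigs. Subunit 5 (M_dom_rep_c5529, 2112 bp) had 22.7, 117, 32.0, 72.4, 18.7, 42.4, 39.9 and 53.9 CPM in No.1 to No.8. Here too the even-numbered samples, at 42.4 to 117 CPM, lay above the odd-numbered ones, at 18.7 to 39.9 CPM, but by a narrow margin between No.6 and No.7.

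Other subunits shared the peak in No.2. The alpha subunit (M_dom_rep_c6165) reached 35.6 CPM in No.2 and 25.6 in No.4, with 4.42 CPM in No.5. The beta subunit CCT2 (M_dom_rep_c5560) had 42.0 CPM in No.2, 23.2 in No.4 and 3.46 in No.5, a 12.1-fold range. Its second contig, M_dom_rep_c13041, had 0.180 of the counts of the first in No.1 and 1.04 in No.7, so the pair did not keep a fixed ratio. Of the other 5 contigs, 1 had no counts (M_dom_rep_c13119, zeta subunit) and 4 were below the minimum for a test.

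Mitochondrial chaperonins summed to 110 ± 49.1 CPM (SD, n = 8) over 5 contigs, from 52.3 CPM in No.5 to 213 CPM in No.2. Hsp60, which folds proteins inside mitochondria, gave 4 of these contigs, whose ratios of highest to lowest ran from 1.85 to 4.68. M_dom_rep_c34553 (1341 bp) had 26.5 CPM in No.5 and 28.0 in No.1, a median of 42.9 and a highest value of 49.2 CPM in No.2, a ratio of 1.85. The Hsp60 contig M_dom_rep_c7543 (2111 bp, matched to *Drosophila*) was likewise lowest in No.1 and No.5, at 6.45 and 8.65 CPM, and lay between 14.2 and 16.9 CPM elsewhere. M_dom_c20184 (525 bp) varied 2.30-fold, with its highest level in No.3, and M_dom_rep_c12783 (791 bp) varied 4.68-fold, with 0.517 CPM in No.7 and 1.64 to 2.42 CPM elsewhere. A contig annotated only as mitochondrial chaperonin, M_dom_rep_c15898 (759 bp), had 20.8, 136, 11.5, 62.9, 9.52, 39.8, 42.1 and 40.5 CPM in No.1 to No.8. No.2 stood above all others and No.5 and No.3 were lowest, so that the counts of this contig per Hsp60 count ran from 0.251 in No.3 to 2.76 in No.2.

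Heat shock factor, the transcription factor of the heat shock genes, was near the detection limit. M_dom_rep_c27350, matched to heat shock factor-c of the silkmoth *Bombyx mori*, reached 2.83 CPM in No.4, followed by No.8 (1.73 CPM) and No.7 (1.38 CPM), and lay between 0.124 and 0.767 CPM elsewhere. M_dom_rep_c17699, matched to isoform D of the *Drosophila* factor, had counts in No.7 (0.775 CPM), No.8 (0.273 CPM) and No.2 (0.0690 CPM) and none in the other samples. It was not tested.

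Contigs whose annotation gives no family were among the most counted. The 17 contigs annotated only as molecular chaperone summed to 669 ± 118 CPM (SD, n = 8), with a range of 537 to 893 CPM, and the 6 annotated as multifunctional chaperone to 548 ± 87.6 CPM, with a range of 392 to 705 CPM. Both sums were lowest in No.5 and highest in No.3. With TMM the molecular chaperone sum was lowest in No.8 and highest in No.4, and the ratios fell from 1.66 to 1.36 and from 1.80 to 1.23.

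The most counted of the first kind, M_dom_rep_c31886 (926 bp), had 380 CPM in No.3, 351 in No.2 and 136 in No.5, while M_dom_rep_c5497 (2354 bp), of the same protein, stayed between 90.7 and 143 CPM. Of the 15 tested, M_dom_c3032 and M_dom_rep_c20692 were not called by the chi-square test with Benjamini-Hochberg adjustment (adjusted p = 0.48 and 0.056).

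Contigs matched to the same *Glossina* protein did not always run in parallel. M_dom_c25767 had 0.924 to 1.07 times the counts of M_dom_rep_c12812 in all 8 samples. M_dom_rep_c12988, matched to the same protein, had 22.9 CPM in No.2 and 97.9 and 100.4 CPM in No.5 and No.6, and its counts relative to M_dom_rep_c12812 ran from 0.232 in No.2 to 1.90 in No.5. The steepest of this class, M_dom_rep_c32304 (760 bp), was lowest in No.2 (2.49 CPM), No.4 (5.38 CPM) and No.1 (7.45 CPM) and lay between 17.5 and 28.9 CPM elsewhere. Its lowest sample, No.2, was the highest for p23 and the TCP1 chaperonin, but in No.1 p23 (M_dom_rep_c6170) was low as well, at 46.2 CPM. No.5, the highest sample of M_dom_rep_c32304, was also the highest in muscle contigs. Their part in this value was not tested.

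For the multifunctional chaperone, M_dom_c32068 (723 bp) was steady at 214 to 380 CPM, and M_dom_rep_c32026 (333 bp) kept to 0.312 to 0.399 of its counts. M_dom_rep_c22264 (288 bp) and M_dom_rep_c17407 (269 bp), of the same protein, had 137 and 54.7 CPM in No.3 and at most 80.0 and 36.6 CPM elsewhere. No.3 was highest for both.

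Among contigs annotated only as heat shock protein, 4 were matched to a single protein of *M. domestica*. M_dom_rep_c11845 (1047 bp) had 170 CPM in No.1, 119 in No.5 and 68.0 to 106 CPM in the other samples. No.1, low in Hsp70, HSP83 and p23, was highest here. M_dom_c33446 was also highest in No.1, at 5.90 CPM, and lowest in No.4 at 0.283 CPM. M_dom_c33440 was instead highest in No.3, at 3.55 CPM, with 0.0690 CPM in No.2, and M_dom_rep_c7673 in No.5, at 4.13 CPM. A contig matched to a heat shock protein of *Culex quinquefasciatus*, M_dom_rep_c6247 (2262 bp), had its highest level in No.2, at 10.9 CPM, and its lowest in No.5, at 1.83 CPM.

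Members that act on a single target rather than on folding in general, or fit no other class, gave 8 tested contigs. All 8 were called by the chi-square test and 2 passed the 4-fold limit, against 95.1% and 61.8% of all contigs. BCS1 (M_dom_rep_c6255), known in yeast for its part in building respiratory complex III, varied 2.40-fold around a mean of 23.8 CPM, and its second contig, M_dom_rep_c35255, 4.92-fold around 3.54 CPM. The putative metalloprotease with chaperone activity (M_dom_c4706) ranged from 22.9 to 44.7 CPM. COX17, which carries copper for cytochrome c oxidase, ranged from 5.29 CPM in No.8 to 19.6 CPM in No.3 on M_dom_c4000, but was highest in No.7 on M_dom_rep_c29293, at 9.47 CPM. The histone chaperone asf1 (M_dom_rep_c6362) was sparse, with 1.86 CPM in No.2, 1.23 in No.4 and 0.729 in No.8 and at most 0.575 CPM elsewhere. Besides these, mu-crystallin (M_dom_c25808), at 0.0961 to 0.877 CPM, is an enzyme-like crystallin and no small heat shock protein, and M_dom_rep_c18525, a cytochrome oxidase contig of 113 bp without counts, met the rule only through the species name *Chaoborus crystallinus*.

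**Figure D5:**
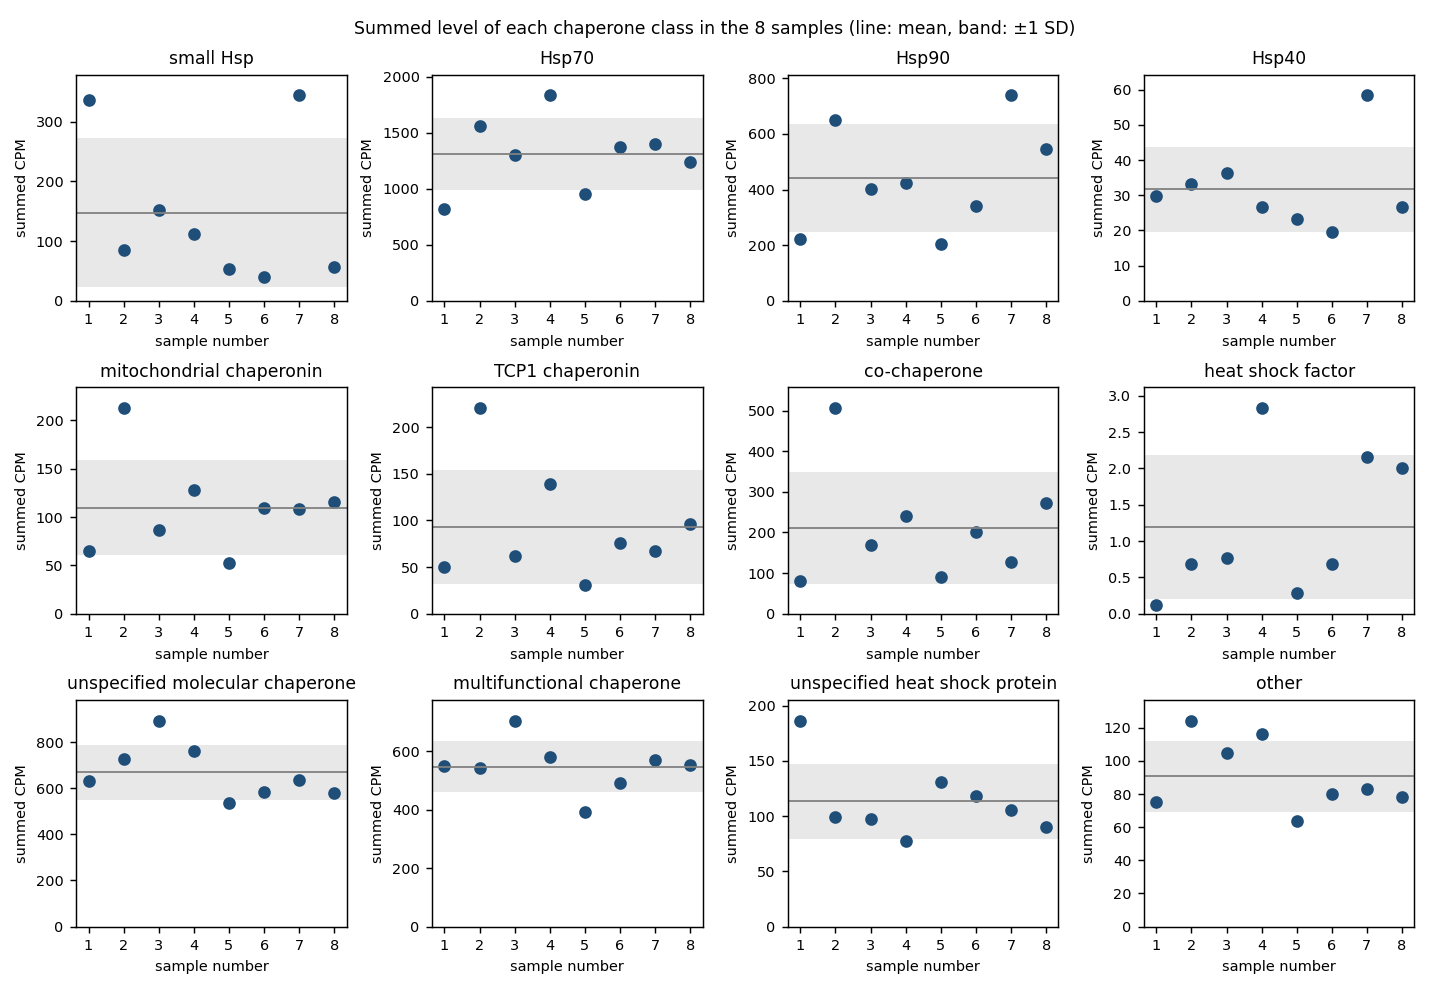
Summed level in CPM of the contigs of each of 12 classes in the 8 samples, with the mean (line) and 1 SD on either side (band). All axes start at 0. Co-chaperones, the TCP1 chaperonin and the mitochondrial chaperonins are highest in No.2, small heat shock proteins in No.1 and No.7, and the molecular and multifunctional chaperones vary least.

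Other folding genes that are not members gave 28 contigs, of which 26 were tested. Of these 25 varied beyond counting error in the same test, against 95.1% of all contigs. The 4-fold limit was passed by 15 (57.7%), against 61.8% of all contigs. The median ratio was 4.95, against 4.93 for all contigs, so these values were close to those of the whole assembly. Starvin, a BAG protein that in *Drosophila* is known from muscle (M_dom_rep_c13797), had 11.9 CPM in No.7, 10.7 in No.5 and 0.207 CPM in No.2. No.2 was also lowest in muscle contigs and No.5 highest, whose part in this value was not tested. The alpha subunit of the nascent polypeptide associated complex, which meets new chains at the ribosome (M_dom_rep_c5875), had 25.3 CPM in No.2, 19.7 in No.4 and 5.71 in No.1. An FKBP-type prolyl isomerase (M_dom_rep_c5898) had 256 CPM in No.8, 183 in No.2 and 32.8 in No.5, and protein disulfide isomerase of the endoplasmic reticulum (M_dom_rep_c5557) ranged from 78.6 to 150.1 CPM, a ratio of 1.91.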

How the data were processed

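In the deposited table each contig has its length, a BLASTX annotation and, per sample, a raw count of reads and a scaled signal. The deposited signal is the count times a constant of that sample, and its 8 columns were not used. The contigs were assembled from pyrosequencing reads of a normalized cDNA library, a step that evens out abundant transcripts. The sources used here do not name the program that counted the reads, nor the reads. Each sample had more counts than the pyrosequencing reads reported for that library in all. Those reads alone therefore do not account for the counts.

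Members and gene lists were chosen with earlier results of these data known. Classes follow the words of the annotation, and co-chaperones and contigs without a family were split off after the annotations were seen. Named contigs were the 3 with the highest mean CPM and the 2 with the largest ratio (mean count of at least 50) in each class, and those matched to *M. domestica*. All others were picked after their values were seen. CPM were computed on total counts. Ratios took the lowest sample as at least 3 counts. A mean count of 5 or more was needed for the test, which was done by chi-square over the 8 samples at an adjusted 0.05. Counting error alone enters that test. In 23597 simulated contigs with counting error alone, it called 73% of 200 contigs changed 2-fold and 0.0342% of the unchanged ones. edgeR 4.0.16 gave the dispersions, with TMM factors and no groups, and alternatives used DESeq2 1.42.0, both in R 4.3.3. All other steps were run in Python 3.11.15 with pandas 2.3.3, numpy 2.4.6, scipy 1.17.1 and, for plots, matplotlib 3.10.9. Sequences of the contigs were not analysed here.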

Additional observations from a re-analysis of the deposited data

Results flagged for a closer look

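For 17 of the 77 tested members, against 20.5% of all contigs tested, and for 3 of 13 summed values, 1 sample lay far from the other 7, measured by its gap to the nearest value over the whole range. Normally distributed values would give such a gap in about 1 in 20 groups. As 20.5% of all contigs passed here, the number of members is read against that share. What set these samples apart was not tested.

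No.2 stood high in the summed co-chaperones (506.8 CPM) and mitochondrial chaperonins (212.9 CPM). Single contigs with a high No.2 were p23 (M_dom_rep_c6170, 369.3 CPM), mitochondrial chaperonin (M_dom_rep_c15898, 135.5 CPM), Hop (M_dom_rep_c12114, 18.5 CPM), a molecular chaperone (M_dom_rep_c7162, 10.6 CPM) and heat shock protein 20 (M_dom_c4753, 1.86 CPM).

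No.7 stood high in the summed Hsp40 contigs (58.5 CPM), in Hsp40 itself (M_dom_c2985, 40.5 CPM), Hsp70 BD2 (M_dom_c27431, 21.9 CPM), COX17 (M_dom_rep_c29293, 9.47 CPM) and ScHSP23 (M_dom_c34804, 4.30 CPM), and low in an Hsp60 contig (M_dom_rep_c12783, 0.517 CPM). No.1 stood high in crystallin alpha B (M_dom_c3945, 96.6 CPM, M_dom_c33364, 15.7 CPM, and M_dom_c25853, 14.6 CPM) and in a heat shock protein of *M. domestica* (M_dom_c33446, 5.90 CPM). No.3 stood high in the multifunctional chaperone contigs M_dom_rep_c22264 (137.0 CPM) and M_dom_rep_c17407 (54.7 CPM), and No.5 low in M_dom_rep_c32026 of that protein (79.6 CPM).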

How the results depend on the processing

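Of 195 alternative values, 180 stayed within the spread between samples or, for counts, within 1.5 times, and 15 did not. These values are the share of counts, the numbers of members called, past 4-fold or with the even-numbered samples highest, the median dispersion and the mean level of each class. None of them moved that far when a sample was left out, with TMM or DESeq2 scaling, or with other species added. Ratios of highest to lowest sample and the number of members lowest in No.5 did change by more, the latter from 28 to 16 with TMM. Without their highest sample the ratios fell from 6.26 to 3.36 for co-chaperones, from 7.15 to 4.50 for the TCP1 chaperonin and from 4.07 to 2.45 for mitochondrial chaperonins (all without No.2), from 2.97 to 1.85 for summed Hsp40 (without No.7), from 6.96 to 3.31 for crystallin alpha B (M_dom_c3945) and from 4.00 to 1.89 for Hsp40 (M_dom_c2985). The share of counts was 0.362% to 0.394% and the members past 4-fold 30 to 44 as each sample was left out. With the 10 most counted contigs taken out of the totals, the share was 0.463%, the molecular chaperone sum 824.9 CPM and the multifunctional chaperone sum 676.3 CPM, since smaller totals raise every CPM. With a mean count of at least 50, fewer contigs entered, and 48 were called by chi-square, 23 passed 4-fold and 7 had the even-numbered samples as the 4 highest. Without its most counted contig a class fell to 319.7 CPM for Hsp70, 8.81 for Hsp90, 14.6 for Hsp40, 65.2 for co-chaperones, 0.140 for heat shock factor, 430.0 for molecular chaperones, 225.3 for multifunctional chaperones, 13.3 for unspecified heat shock proteins and 58.9 CPM for the remaining contigs. The Hsp90 sum with the contig of no bracketed species was added after seeing the data. No paired analysis was possible because all samples belong to 1 group. Levels of contigs near 3 counts, such as heat shock factor, are limited by depth.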
